A study of Mus musculus with 5 samples.

Results

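B lineage cells of the recipient trachea were taken as every barcode with at least 2 UMIs (unique molecular identifiers, here counted transcripts) of Cd79a, a signalling chain of the B cell receptor, and fewer than 2 UMIs of Cd3d, Cd3e and Cd3g together, the CD3 chains of T cells. Barcodes counted as cells had at least 500 mouse genes and under 20% mitochondrial UMIs. The rule found 103 cells among 6620 kept barcodes of 5 libraries, all of them among the 2551 barcodes of the 2 endogenous libraries. The cells were selected on their UMIs of Cd79a and the CD3 genes, and the subsets on Ms4a1 and Jchain, so the values of these genes below are a description.

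The libraries are 10x Chromium single-cell RNA sequencing of adult wild type 129 X1/S1 mouse tracheas. Recipients had received 2% polidocanol, a detergent that strips the airway epithelium, and 5 hours later 6000000 iBCs, which are basal cells made from mouse embryonic stem cells. The trachea of 1 recipient was collected after 40 days and that of another after 56 days, and each was sorted into a GFP-negative endogenous library and a GFP-positive donor-derived library of viable, Calcein Blue-positive cells. The fifth library is 1 control trachea with neither injury nor transplant, sorted for viable cells. All tissue was dissociated with pronase. The donor cells carry the GFP label, so the sort itself keeps host leukocytes out of the donor-derived libraries. With 1 library a day, the day, the recipient and the library cannot be told apart, and differences from the control have no test.

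B cells carry a membrane immunoglobulin whose signal is passed on by Cd79a and Cd79b. They start with the IgM and IgD heavy chains and can switch to IgG, IgE or IgA. Plasma cells, their secreting descendants, lose the B cell surface programme and make large amounts of immunoglobulin, and at mucosal surfaces much of it is IgA, joined by the J chain (Jchain) and carried across the epithelium by the polymeric immunoglobulin receptor (Pigr).

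Upstream sequence is shown for 3 genes on which the description turns: Cd79a, which chose the cells, Ltb, a lymphotoxin chain, and Ccr6, a chemokine receptor. The sequences are from RefSeq (GRCm38.p6, plus strand of each gene) and end at the base before the annotated gene start, and capitals mark a match to a motif. The Cd79a stretch lies at chr7:24897247-24897380 and holds a match to an EBF type motif (TC, any 2 bases, then GGGAAT) 175 to 166 bases before the RefSeq start. The Ltb stretch lies at chr17:35194257-35194438 and holds a kappa B motif 87 to 78 bases before its RefSeq start, matched on the minus strand. The Ccr6 stretch lies at chr17:8235793-8236042 and holds an octamer (ATTTGCAT), the motif of Oct factors, 68 to 61 bases before its RefSeq start. For Cd79a and Ltb the RefSeq start lies inside the annotated gene, past the end of the stretch shown.
Cd79a: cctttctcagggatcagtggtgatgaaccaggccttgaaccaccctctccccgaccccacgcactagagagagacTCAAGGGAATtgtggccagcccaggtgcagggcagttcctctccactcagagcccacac
Ltb: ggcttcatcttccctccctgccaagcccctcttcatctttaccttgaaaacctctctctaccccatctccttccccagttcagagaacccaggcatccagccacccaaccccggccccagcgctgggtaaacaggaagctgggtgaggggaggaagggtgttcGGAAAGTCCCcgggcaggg
Ccr6: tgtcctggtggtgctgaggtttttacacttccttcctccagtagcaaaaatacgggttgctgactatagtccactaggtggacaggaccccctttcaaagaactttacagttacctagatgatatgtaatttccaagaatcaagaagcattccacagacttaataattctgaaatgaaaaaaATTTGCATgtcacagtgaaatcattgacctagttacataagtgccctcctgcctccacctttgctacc

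Among 32851 mouse promoters, 1.60% held the octamer, 0.694% the EBF type motif, 0.140% the kappa B motif and 2.44% a PU.1 type motif (GAGGAAGT), on either strand of the 250 bases before the start. Of 71 genes of the B cell lists, 54 had a promoter entry. The octamer was found at Blnk, Ccr6 and Prkcb, the EBF type motif at Cd79a and Ptpn6, the kappa B motif at Ltb, and the PU.1 type motif at Cd37, Cd72, Cxcr3 and Fcrl1. The motifs were chosen with the results known, and a match describes letters only. In the gene annotation (GENCODE vM21, GRCm38) Cd79a spans chr7:24897381-24902197, Ltb chr17:35194439-35196320 and Ccr6 chr17:8236043-8257141, all on the plus strand.

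B lineage cells were found in both recipients and in none of the other libraries. On day 40 they were 43 of 1323 barcodes, or 3.25% (exact Clopper-Pearson 95% interval 2.36 to 4.35), and on day 56 they were 60 of 1228, or 4.89% (3.75 to 6.24). The intervals overlapped. The control held 0 of 634 barcodes, with an exact upper limit of 0.580%. The donor-derived libraries held 0 of 1700 and 0 of 1735, with exact upper limits of 0.217% and 0.212%. Intervals and limits cover counting error only, and a share depends on how the tissue was dissociated and sorted. Among barcodes with a UMI of Ptprc (CD45, the common leukocyte antigen), B lineage cells were 38 of 231 on day 40, or 16.5% (11.9 to 21.9), and 50 of 392 on day 56, or 12.8%. The order of the days was thus the reverse with that denominator. The control held only 8 Ptprc-positive barcodes and the donor-derived libraries 12 and 3, so 0 of 8 in the control allows a share of leukocytes up to an exact bound of 36.9%.

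**Figure D1:**
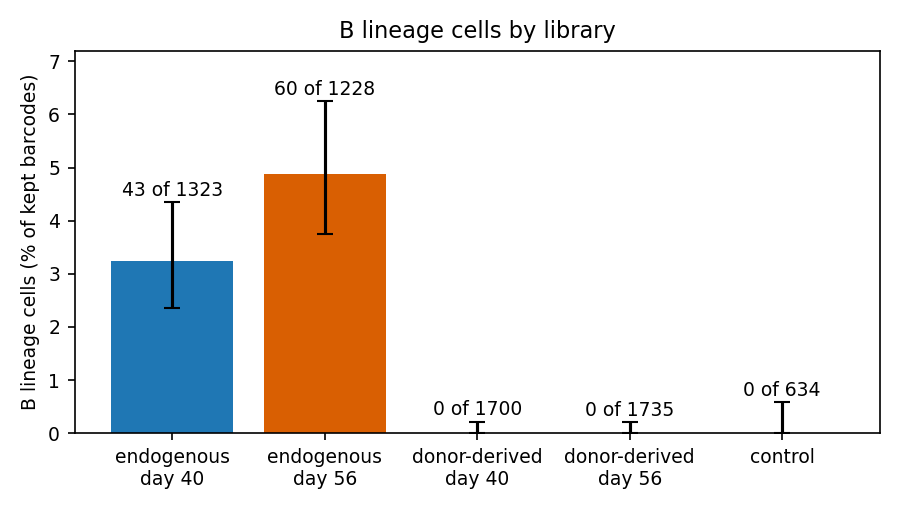
B lineage cells as a percentage of kept barcodes (y axis) in each of the 5 libraries (x axis), with exact 95% Clopper-Pearson intervals and the counts above each bar. Both endogenous libraries lie above 3%, and the other 3 libraries hold 0 cells.

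The rule's threshold left few cells near it. Cd79a in members ranged from 2 to 39 UMIs (median 10) on day 40 and from 3 to 35 (median 11) on day 56. At the threshold, 2 members had 2 UMIs on day 40 and none on day 56, and just outside it 3 barcodes in each library had 1 UMI. The members carried a median of 6376 and 6325.5 UMIs on days 40 and 56, and 1997 and 1859.5 genes, against library medians of 11269 and 11799 UMIs. Library medians ranged from 10028 to 12796.5 UMIs over all 5 libraries, 18 kept control barcodes had over 10% human UMIs, and members had at most 0.078%. Libraries shared 0 to 2 barcodes with each other, none of them a member's.

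Ms4a1, the CD20 antigen of mature B cells, split the cells with Jchain into very unequal subsets. Cells with an Ms4a1 UMI and under 10 Jchain UMIs were 41 of 43 on day 40, or 95.3% (84.2 to 99.4), and 55 of 60 on day 56, or 91.7% (81.6 to 97.2). Jchain-high cells, with 10 or more Jchain UMIs, numbered 1 of 43 and 4 of 60, and 1 cell of each day had neither. Ltb was in 40 of 41 and 51 of 55 Ms4a1-positive cells, and Mzb1, a chaperone of immunoglobulin assembly, in 39 and 48. Neither gene is particular to these cells. After thinning each cell to 2000 UMIs, Ltb was in 82.9% and 76.4% of Ms4a1-positive cells and in 67.6% and 71.0% of T cells. Mzb1 was then in 51.2% and 58.2% of Ms4a1-positive cells and in 37.1% and 6.41% of class II myeloid cells. The label of a B lineage fits Pax5 and Ebf1, which are described below. Markers of T and NK cells were at 0 for 13 of 15 and 14 of 15 genes. These zeros include the 3 genes Cd3d, Cd3e and Cd3g, which the rule itself kept low. Mast and erythroid markers were at 0 for 9 of 9 on both days. Myeloid markers were at 0 for 11 and 10 of 15, and stromal and endothelial markers for 9 and 8 of 10. Of 7 plasmacytoid dendritic cell markers 3 were at 0, and the sum of the other 4 was 981 and 1007 CPM (UMIs per 1000000 UMIs of the summed cells), with a median of 8 and 6 UMIs a cell. These 4 include Irf8, Tcf4 and Bst2, which B cells also express.

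All 11 markers of epithelial cells had UMIs in the Ms4a1-positive cells of both days. Their sum was 8287 CPM on day 40 and 30806 on day 56, and a cell's own count ran from 1 to 2419 (median 5) and from 0 to 13911 (median 4). After thinning each cell to 2000 UMIs, Scgb1a1, the secretoglobin of club cells, was in 65.9% and 65.5% of Ms4a1-positive cells, in 64.9% and 69.4% of T cells and in 72.4% and 72.0% of epithelial cells. Class II myeloid cells had 72.6% and 59.0%, so all these shares lay between 59.0% and 72.6%, and at 1000 UMIs between 40.5% and 65.9%. Apart from this, 6 members stood out with 2 or more Epcam UMIs, 2 on day 40 and 4 on day 56. One on day 40 held 45470 UMIs with 39 of Epcam, 83 of Krt8 and 195 of the lysozyme gene Lyz2. Another, on day 56, held 12527 UMIs of Scgb1a1 and 360 of Lyz2. Lyz2 is not particular to myeloid cells here. Thinned to 2000 UMIs, it was in 33.5% and 46.9% of epithelial cells and in 22.6% and 59.0% of class II myeloid cells. The doublet caller Scrublet marked 3 and 1 members. One of them on day 40 had no Epcam UMI but 2123 of Scgb1a1 and 254 of Scgb3a2, and it remains where only Epcam-carrying members are left out.

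The 5 Jchain-high cells were not alike. On day 40 the only one had 11 Jchain, 12 Igha (the IgA heavy chain), 9 Igkc (the kappa light chain), 2 Ms4a1 and 2 Mki67 UMIs, with 17.9% mitochondrial UMIs. It stood just above the threshold. On day 56, 3 cells had 688, 1165 and 610 Jchain UMIs and 3479, 4806 and 1785 of Igkc. Immunoglobulin genes made up 64.7%, 56.6% and 51.0% of all their UMIs. The first 2 of these carried Igha, with 978 and 1337 UMIs, and the last carried Ighg2c, an IgG heavy chain, with 63. All 3 had 0 UMIs of Ms4a1, Ltb, Pax5 and H2-Aa and 7 to 10 of Cd74, the class II invariant chain. The remaining cell of day 56 lay between, with 60 Jchain, 291 Igkc, 24 Igha and 24 Ighg2b UMIs.

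That intermediate cell still had 3 Ms4a1, 61 H2-Aa and 167 Cd74 UMIs, and immunoglobulin was 2.59% of its UMIs. It also had 21 UMIs of Mzb1 and 8 of Prdm1, the factor that drives plasma cell formation. Summed over the 4 cells of day 56, Prdm1 stood at 277 CPM with UMIs in 4 of 4, against UMIs in 1 of 41 and 2 of 55 Ms4a1-positive cells. Txndc5 and Derl3, parts of the protein folding and disposal machinery of the endoplasmic reticulum, were in all 4, with 24 and 11 UMIs. Xbp1, the factor of the secretory programme, was in 3 of 4. Other genes of the plasma cell list were sparse. In the cells of 688, 1165 and 610 Jchain UMIs, Sdc1 had 3, 0 and 0 UMIs. Tnfrsf17 had 1, 0 and 1 there, and Irf4 0, 3 and 0. The intermediate cell had 0 UMIs of each. Sec11c and Ssr4, of the secretory translocation path, stood at 877 and 924 CPM, and Hsp90b1, a chaperone, at 1524. Below the threshold the highest Jchain counts were 7 and 5, both on day 56, and 1 on day 40. With 1 and 4 cells, neither a test between the subsets nor a comparison of days was made for Jchain-high cells.

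**Figure D2:**
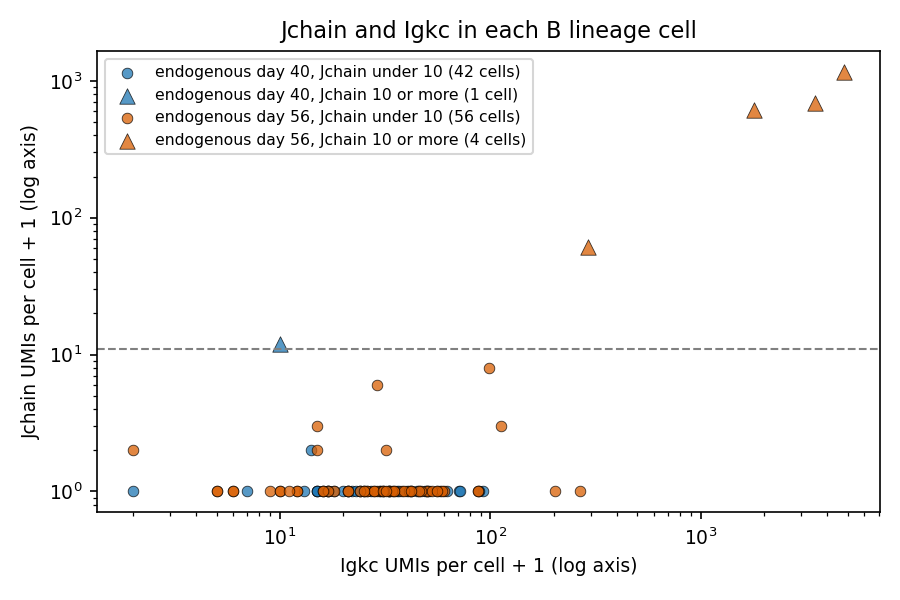
Jchain UMIs (y axis) against Igkc UMIs (x axis) in each B lineage cell, both plus 1 on log axes, coloured by day, with triangles for cells at or above the dashed line of 10 Jchain UMIs. 3 cells of day 56 sit apart with 610 to 1165 Jchain UMIs, and most other cells have none.

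A heavy chain class was called where 1 constant gene held over 50% of at least 5 heavy chain UMIs in a cell. Ighm (IgM) was the class of 20 of 43 cells on day 40, or 46.5%, and of 26 of 60 on day 56, or 43.3%. Igha was next, with 6 and 12 cells. Ighg1 was the class of 3 cells on each day, Ighg2b of 1 and 3, Ighg2c of 0 and 1 and Ighd of 0 and 2, and none was called Ighg3 or Ighe. In 13 cells of each day no class could be called. Of the called cells 33.3% and 40.4% were switched, and the intervals for each class overlapped between days. Reads of the near-identical IgG and lambda constant genes may be assigned to a neighbour, and the strain's alleles differ from the reference, so the IgG subclass of a cell is uncertain. A stricter call, with 80% of at least 10 UMIs, was possible in only 9 and 15 cells, of which 7 and 10 were Ighm and 2 and 4 Igha.

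**Figure D3:**
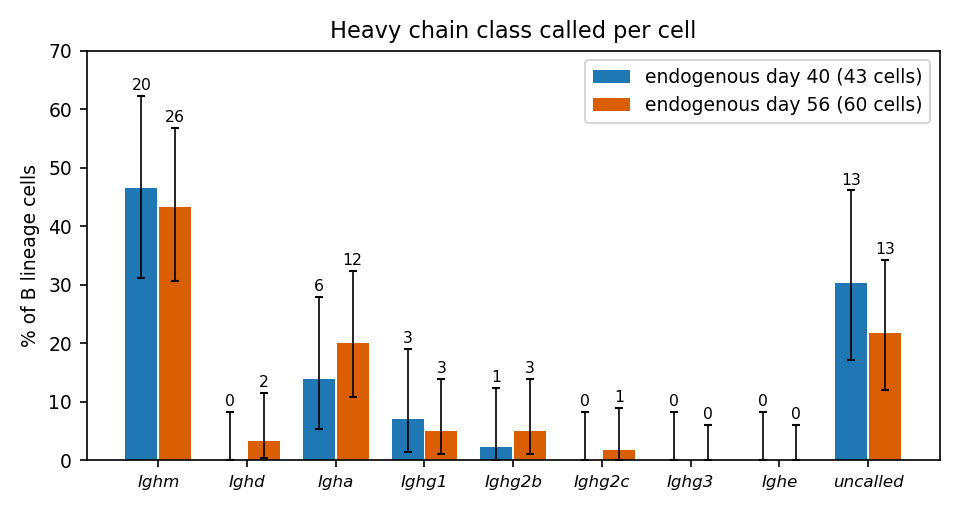
Share of B lineage cells (y axis, percent, with exact 95% intervals) by the heavy chain constant gene called in the cell (x axis), with day 40 and day 56 beside each other and the cell count above each bar. Ighm leads on both days with 20 and 26 cells, followed among called classes by Igha with 6 and 12.

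The light chain was mostly kappa. Igkc exceeded the lambda genes together in 37 of 43 and 50 of 60 cells, and lambda led in 6 and 10. Igkc had UMIs in 41 of 41 and 55 of 55 Ms4a1-positive cells and a lambda gene in 41 and 54 of them. Lambda genes gave 31.7% of the light chain UMIs on day 40 and 27.3% on day 56, although they led in few cells. UMIs of 2 classes in a cell were common too, since 14 of 41 and 18 of 55 Ms4a1-positive cells had at least 2 Ighm and at least 2 switched UMIs. Variable genes were thinly covered, as 31 of 43 and 42 of 60 cells had no light chain variable UMI, and no variable gene led in more than 2 cells of a library.

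Immunoglobulin UMIs in other cells set the background. Thinned to 2000 UMIs, Igkc was in 100% and 98.2% of Ms4a1-positive cells, in 5.41% and 5.65% of T cells in 14.5% and 7.69% of class II myeloid cells and in 0.103% and 1.23% of epithelial cells. Ighm was in 53.7% and 52.7% of Ms4a1-positive cells, in 5.41% and 12.1% of T cells, in 56.5% and 48.7% of myeloid cells and in 0% of epithelial cells. An Ighm UMI therefore did not set B lineage cells apart from this myeloid group, which includes plasmacytoid dendritic cell markers as described below. Igha was in 26.8% and 38.2% of Ms4a1-positive cells, against 0% and 1.61% of T cells. Unthinned, Igha had UMIs in 11 of 41 and 27 of 55 Ms4a1-positive cells. On day 56, Igkc had 76 UMIs in 51 of 731 epithelial cells, and on day 40 it had 1 UMI in 968 cells. Donor-derived and control epithelial cells had at most 2 UMIs of Igkc. The median depth was 6470 and 6302 UMIs in Ms4a1-positive cells, 5883 and 5410.5 in T cells and 12519 and 13656 in epithelial cells.

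Ms4a1-positive cells with an Ighm or Ighd class (19 on day 40, 28 on day 56) and with a switched class (9 and 15) differed in several genes in the same direction on both days. These groups and genes were chosen after their values were seen, so they are a description. Under the stricter class call only 2 switched Ms4a1-positive cells would remain on each day. Cr2, the complement receptor CD21, had UMIs in 10 of 19 unswitched and 1 of 9 switched cells on day 40, and in 11 of 28 and 1 of 15 on day 56. Fcmr, the IgM Fc receptor, was in 9 of 19 against 1 of 9 and in 17 of 28 against 2 of 15. Both genes were thus seen mainly in unswitched cells of both recipients. Btg1, an antiproliferative factor, stood at 804 against 543 CPM and at 797 against 397, and Ltb at 1295 against 738 and 1266 against 1018. These are CPM of pooled UMIs, in which deep cells weigh most. On day 56, switched cells of 30228, 31295 and 32623 UMIs held 11, 14 and 0 Ltb UMIs. The cell of 31295 UMIs also carried Epcam. On day 40, switched cells of 21429, 24566 and 13434 UMIs held 6, 8 and 5 Ltb UMIs, and the last was an Epcam-carrying doublet. The order of Ltb on both days depends on these deep cells.

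Other genes ran the opposite way, with higher levels in switched cells. Bhlhe41, a transcription factor known from B-1 and memory B cells, had UMIs in 2 of 19 unswitched and 8 of 9 switched cells on day 40, and in 6 of 28 and 7 of 15 on day 56. Basp1, a membrane protein known from germinal centre B cells, was in 3 of 19 against 6 of 9 and in 6 of 28 against 10 of 15. Cd80, a costimulatory ligand of memory B cells, was in 1 of 19 against 3 of 9 and in 3 of 28 against 5 of 15. Ccr6 was in 18 of 19 unswitched and 8 of 9 switched cells on day 40, and in 24 of 28 and 10 of 15 on day 56, so it was common in both. Switched cells were also deeper, with a median of 10236 against 6376 UMIs on day 40 and 8216 against 6325 on day 56. Depth raises shares of cells with a UMI, and its part in these shares was not tested. CPM ran in the same direction for these genes other than Ccr6, for which the days differed. Without the members that carried Epcam, Bhlhe41 stood at 13.6 against 143 CPM on day 40 and 55.4 against 122 on day 56, and Basp1 at 102 against 297 and 33.2 against 303.

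**Figure D4:**
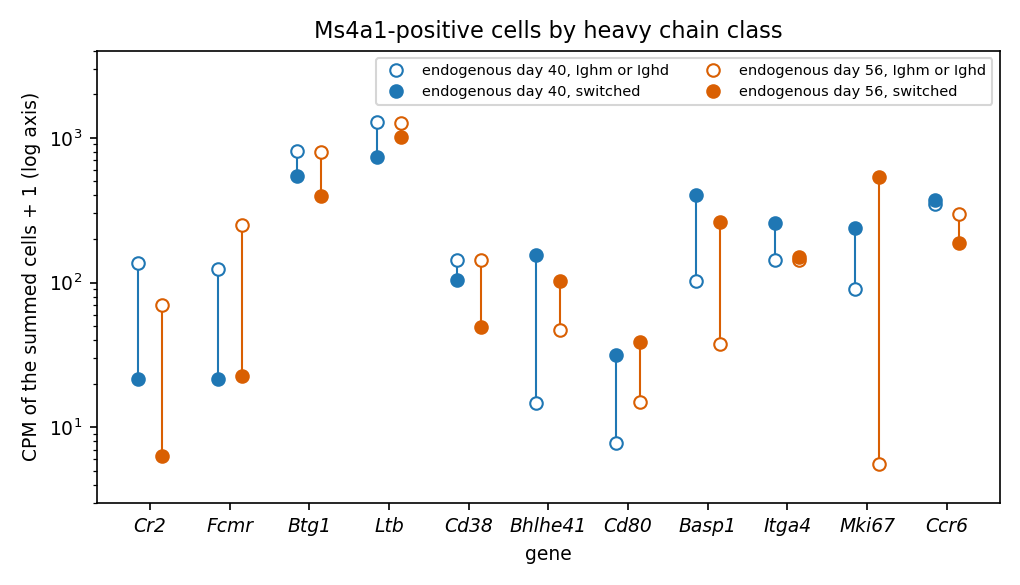
Level of 11 genes (x axis) in Ms4a1-positive cells with an Ighm or Ighd class (open circles) and with a switched class (filled circles), as CPM of the summed cells plus 1 on a log axis (y axis), by day. Cr2, Fcmr, Btg1, Ltb and Cd38 are higher in unswitched cells and Bhlhe41, Cd80, Basp1 and Mki67 in switched cells on both days. The Itga4 values of day 56 almost coincide. The order of Ltb on both days depends on a few deep switched cells.

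Some B lineage cells carried transcripts of dividing cells. Mki67, a proliferation antigen, had 2 or more UMIs in 5 of 41 Ms4a1-positive cells on day 40, or 12.2% (4.08 to 26.2), and in 4 of 55 on day 56, or 7.27% (2.02 to 17.6). All 4 cells of day 56 were among the 10 with an Igha class, and on day 40 they were 2 of 5 Igha cells, 2 of 19 Ighm cells and 1 cell without a class. These cells were far deeper than the rest, with medians of 21429 against 6282 UMIs on day 40 and 23146.5 against 6276 on day 56, and the part of depth in these counts was not tested. T cells had such Mki67 counts in 6 of 37 and 19 of 124 cells. Rgs13, a germinal centre gene, had 15 UMIs in 2 cells of day 40, of which 14 lay in an Epcam-carrying member called a doublet, and Gcsam and Nuggc had none on either day.

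Ms4a1-positive cells were next compared with the T cells of the same libraries (at least 2 CD3 UMIs and under 2 of Cd79a; 37 and 124 cells), summing the UMIs of each class in each library, so that 2 sums stood against 2. Of 5601 genes tested with edgeR's quasi-likelihood test, 525 (9.37%) were higher and 462 (8.25%) lower in B lineage cells at an adjusted p under 0.05, which makes 17.6% in either direction. The median log2 difference of all genes was 0.01. The p-values measure the spread between 2 recipients that also differ in day. Fold changes below are log2 ± SE. Where T cells had no UMI, the fold is a lower bound at 3 UMIs over the group, and where they had 1 to 3 it is a ratio with its 95% counting interval.

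All 12 tested genes of the B cell receptor and its co-receptors were higher (median log2 4.71 with genes absent from T cells at their bound). Cd79b, the partner of Cd79a, stood at 556 and 515 CPM on days 40 and 56 and at 0 and 1.07 in T cells, 662-fold (118 to 26187) higher (edgeR adjusted p = 4.53e-08). Both B lineage sums lay above both T cell sums. Cd22, an inhibitory receptor, was at least 27.4-fold, Cr2 at least 22.2-fold and Fcmr at least 41.6-fold higher, each called by edgeR. Of 13 signalling genes 12 were higher and Cd24a was not called (median 4.84). Among them Bank1, a scaffold, was at least 86.4-fold higher, Blnk, the linker downstream of the receptor, 60.0-fold (20.1 to 295), and Lyn, the kinase that phosphorylates Cd79a and Cd79b, rose by 5.29 ± 0.44.

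Of 13 transcription factors, 9 were higher, 1 lower and 3 not called (median 4.14). Ebf1, which commits progenitors to the B lineage, stood at 631 and 528 CPM against 0 and 0, at least 238-fold higher (edgeR adjusted p = 1.1e-07). Pax5, the guardian of B cell identity, stood at 122 and 80.5 against 0 and 0, at least 41.1-fold higher. Mef2c rose by 7.59 ± 0.36, and Pou2af1, a partner of Oct factors, was 89.3-fold (15.4 to 3580) higher. Ets1 was the factor that was lower, at 137 and 121 CPM against 419 and 420, or -1.47 ± 0.18.

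Plasma cell factors were mixed, with 4 of 10 higher, 2 lower and 4 not called. Mzb1 stood at 427 and 638 CPM against 0 and 0, at least 223-fold higher, but it was not called against the class II myeloid cells compared below. Prdm1 was lower, at 2.48 and 6.36 against 32.7 and 25.7, or -2.32 ± 0.62 (edgeR adjusted p = 0.024), on 1 and 3 UMIs of B lineage cells. That call was lost under DESeq2, with all B lineage cells and in 3 of 4 fits that left out 1 sum (adjusted p up to 0.735). Xbp1 was not called, at 0.02 ± 0.31, and its sign turned in several alternatives. Secretory pathway genes showed 2 of 22 higher, Herpud1 and Hsp90b1, with 20 not called and a median of -0.11. Neither call held under DESeq2 or without the cells of day 56 of either class, and that of Herpud1 was also lost without the Epcam-carrying members (adjusted p up to 0.245 for Herpud1 and 0.213 for Hsp90b1).

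Immunoglobulin constant genes were higher in 11 of 11 cases (median 6.74 at the bounds). Igha stood at 358 and 593 CPM against 3.27 and 3.21, or 7.34 ± 0.42 (edgeR adjusted p = 7.33e-07), and Ighm at 745 and 1013 against 78.5 and 71.8, or 3.80 ± 0.22. With the Jchain-high cells included, the calls of Igha, Igkc, Iglc1 and Ighg2c were lost (edgeR adjusted p = 0.215, 0.152, 0.0734 and 0.303), while the fold of Igha grew to 9.88. In the class II pathway, which presents antigen, 8 of 11 genes were higher and 3 not called (median 4.07). H2-Eb1, a class II beta chain, stood at 2255 and 2331 CPM against 85.1 and 175, or 4.28 ± 0.30, and H2-Ob, of the B cell modulator DO, rose by 5.94 ± 0.39. H2-Aa and Cd74 differed by 4.03 ± 0.72 and 4.07 ± 0.63 and did not pass the test (edgeR adjusted p = 0.0808 and 0.0712).

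Trafficking receptors divided, with 4 of 12 higher, 4 lower and 4 not called (median -0.59). Ccr6, the receptor of the chemokine Ccl20, stood at 333 and 242 CPM against 118 and 80.4, or 1.83 ± 0.23 (edgeR adjusted p = 0.000199), and 2.03 ± 0.24 without the Epcam-carrying cells. It had UMIs in 37 of 41 and 43 of 55 Ms4a1-positive cells and in 16 of 37 and 38 of 124 T cells. Thinned to 2000 UMIs, the shares were 53.7% and 40.0% against 27.0% and 12.1%, with 3.23% and 2.56% in myeloid and 0.103% and 0% in epithelial cells. Cxcr5, which guides B cells to follicles, rose by 2.58 ± 0.47 (edgeR adjusted p = 0.0023), a call that was lost without the B lineage cells of day 56. Itgb7, part of the gut homing integrin, was lower, at 24.8 and 31.8 CPM against 213 and 137, or -2.31 ± 0.32. The lymph node homing receptor Ccr7 was in 4 of 41 Ms4a1-positive cells on day 40 and in 8 of 55 on day 56.

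In the TNF family 4 of 9 genes were higher, 3 lower and 2 not called. Tnfrsf13c, the BAFF receptor needed for B cell survival, stood at 238 and 203 CPM against 3.27 and 3.21, or 6.22 ± 0.34. Ltb stood at 914 and 1206 against 707 and 635, or 0.91 ± 0.16 (edgeR adjusted p = 0.00233), so it was called at less than a doubling. Cd27 was lower, at 4.97 and 10.6 against 108 and 151, or -3.79 ± 0.42. Cd40lg and Il21, T cell signals to B cells, had UMIs in 6 of 37 and 4 of 37 T cells on day 40 and in 20 of 124 and 15 of 124 on day 56, and B lineage cells were at least 9.18-fold and 8.71-fold lower. The call of Il21 was lost without the T cells of day 40.

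Among the lists of B cell states, the activation genes had 4 of 10 higher, 1 lower and 5 not called (median 0.88). Cd83 stood at 233 and 278 CPM against 55.6 and 50.4, or 2.53 ± 0.22, and Cd69 rose by 2.01 ± 0.26. Of 10 memory, marginal zone and B-1 genes 3 were higher and 5 lower. Bhlhe41 was 30.2-fold (9.89 to 150) higher, while Cd5, a B-1a and T cell antigen, was 111-fold (19.6 to 4405) lower and had UMIs in 0 of 41 and 1 of 55 cells. Of the 11 genes of the germinal centre list 8 were too low to test, and the other 3 were higher (Basp1, Cd38 and Fas). Cd38 is known to be low on germinal centre B cells of the mouse. Basp1 rose by 5.18 ± 0.55, a call lost without the T cells of day 56, and the call of Fas, at 1.59 ± 0.32, was lost there and under DESeq2. No cell cycle gene was higher, 5 of 15 were lower and 10 were not called (median -0.93), and Mki67 differed by -0.53 ± 0.32 (edgeR adjusted p = 0.337).

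A few called genes rested on mixed cells. Lyz2 was called higher than in T cells by 4.87 ± 0.37, Wfdc2 by 2.67 ± 0.35, Krt18 by 2.39 ± 0.53 and Pigr by 4.24 ± 0.52. Without the members that carried Epcam, Wfdc2 stood at -1.02 and was not called, and Lyz2, Krt18 and Pigr were too low to test. Of the 8 genes with the largest lower values, Trac, Trbc1 and Trbc2 are T cell receptor chains, Nkg7, Ccl5 and Xcl1 are cytotoxic and chemokine genes, and the others were S100a4 and Penk. The call of Xcl1 was lost with all B lineage cells, without those of day 56 and without doublets.

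**Figure D5:**
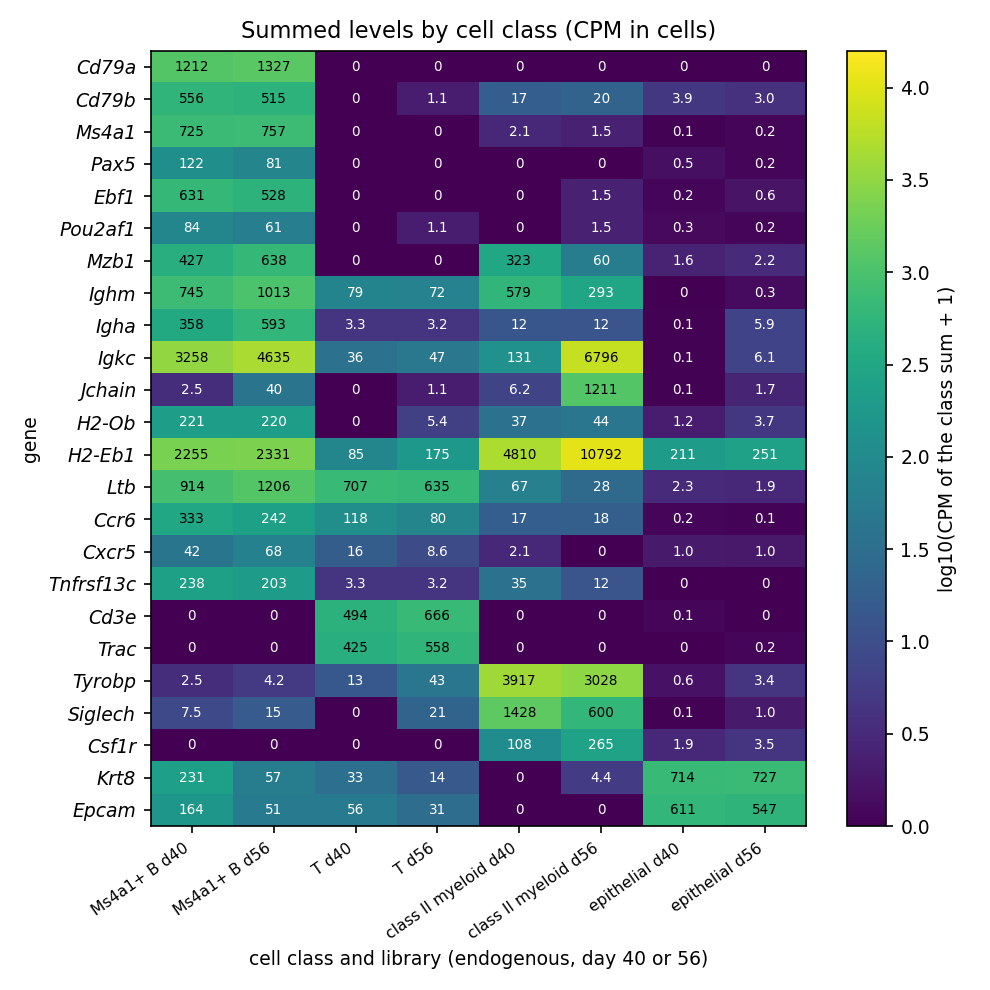
Summed level of 24 genes (rows, CPM printed in each cell, colour on a log10 scale of CPM plus 1) in Ms4a1-positive B lineage, T, class II myeloid and epithelial cells of both endogenous libraries (columns). Pax5 and Ebf1 lie between 81 and 631 CPM in both B lineage columns and at most at 1.5 CPM in all other columns, while Igkc and Jchain are also high in the myeloid column of day 56.

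The second comparison was with class II myeloid cells, which also present antigen (62 and 78 cells). They had at least 2 H2-Ab1 and 2 Tyrobp plus Fcer1g UMIs, under 2 Cd79a, under 2 CD3 and no Epcam UMIs. This group was itself mixed, as Siglech, a plasmacytoid dendritic cell marker, had UMIs in 44 of 62 and 32 of 78 cells. Of 5720 genes tested with edgeR, 398 (6.96%) were higher and 597 (10.4%) lower in Ms4a1-positive cells, or 17.4% in either direction, with a median log2 difference of -0.01. Receptor and co-receptor genes were higher in 8 of 12 cases and not called in 4 (median log2 3.31, and 1.05 for the transcription factors, of which 6 of 13 were higher, 3 lower and 4 not called). Cd79b stood at 556 and 515 CPM against 16.7 and 20.5, or 4.84 ± 0.28, and Ebf1 was 669-fold (120 to 26495) and Pax5 at least 38.6-fold higher. Of 14 signalling genes 4 were higher (Bank1, Blk, Cd24a and Ralgps2) and 10 not called. The call of Cd24a was lost with all B lineage cells, without Siglech-carrying cells and without either myeloid sum (edgeR adjusted p up to 0.520), and 1 cell gave 73.0% of its B lineage UMIs on day 40.

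Ccr6 and Ltb were higher in B lineage cells here too. Ccr6 stood at 333 and 242 CPM against 16.7 and 17.6, or 4.06 ± 0.31 (edgeR adjusted p = 0.000154), and Ltb at 914 and 1206 against 66.6 and 27.8, or 4.57 ± 0.39. Both myeloid sums of each gene lay below both B lineage sums. Of the class II pathway 3 of 10 genes were higher (H2-Eb2, H2-Ob and H2-DMb2), 2 lower (H2-DMb1 and H2-DMa) and 5 not called, H2-Ab1 being part of the group's rule. H2-DMb1, a chain of the peptide exchange factor DM, stood at 39.7 and 44.5 CPM against 425 and 680, or -3.69 ± 0.34, while H2-DMb2, its neighbour and close copy, was higher by 1.04 ± 0.23, a call lost under DESeq2, without either B lineage sum and without Siglech-carrying cells. Reads of these copies may be assigned to either gene. Secretory pathway genes were lower in 12 of 24 cases and not called in 12 (median -0.95), and Hspa5, the main chaperone of the endoplasmic reticulum, stood at 231 and 263 CPM against 841 and 677, or -1.58 ± 0.21. Cell cycle genes were higher in 5 of 12 cases (Rrm2, Mcm6, Tyms, Cdk1 and Mcm5; median 2.51), and the call of Cdk1 was lost under DESeq2, without either B lineage sum and without Siglech-carrying cells.

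Immunoglobulin genes were higher in 6 of 11 cases and not called in 5. Igha stood at 358 and 593 CPM against 12.5 and 11.7, or 5.31 ± 0.38, a call lost with all B lineage cells (edgeR adjusted p = 0.199), and that of Iglc1 was lost without the B lineage cells of day 56. Igkc did not pass, at 0.16 ± 2.24 (edgeR adjusted p = 0.98), with 131 CPM in the myeloid cells of day 40 and 6796 on day 56. A single myeloid barcode of day 56, called a doublet, held 4587 of those Igkc UMIs and 824 of Jchain. Without cells of 10 or more Jchain UMIs, Igkc was higher by 5.22 ± 0.27 (edgeR adjusted p = 0.000129) and Ighg2b by 6.68 ± 0.63. Ighm differed by 1.07 ± 0.32 (edgeR adjusted p = 0.0632) and by 2.66 ± 0.25 (edgeR adjusted p = 3.47e-06) without Siglech-carrying cells. Among transcription factors, Irf8 was lower by -2.16 ± 0.44 and Bcl11a by -1.45 ± 0.38 (edgeR adjusted p = 0.0391 for both). Without Siglech-carrying cells Irf8 was not called (edgeR adjusted p = 0.396) and Bcl11a was higher by 2.11. Both calls were also lost without the B lineage cells of day 56, and that of Bcl11a without doublets or without Epcam-carrying members (edgeR adjusted p up to 0.122). Fos, an immediate early factor, was lower by -1.81 (edgeR adjusted p = 0.0491), and not called with the library as a block (0.0598) or in 6 other alternatives (up to 0.270). Of the genes with the largest folds, Gimap4, a lymphocyte GTPase, was at least 157-fold higher, and Lypd2 was called at 114-fold (38.4 to 554) but was too low to test without the members that carried Epcam.

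Between days, Ms4a1-positive cells have 1 library each and no test. Of 2923 genes with at least 50 CPM and 10 UMIs in the higher library, 72 (2.46%) were at least 2-fold higher on day 56 and 212 (7.25%) on day 40, or 9.72% together. Without the members that carried Epcam these were 96 and 104 of 2787, and without doublets as well, 100 and 91 of 2786. The values that follow leave out the Epcam-carrying members but keep the doublets. Fcer2a, the low-affinity IgE receptor CD23 of follicular B cells, stood at 128 CPM on day 40 and 19.8 on day 56. Ighd stood at 175 and 71.8, Cd40, the receptor of T cell help, at 116 and 47.0, and Egr1, an immediate early factor, at 87.3 and 14.9. The Egr1 UMIs of day 40 lay in 7 cells, and 1 cell gave 46.7% of them. Higher on day 56 were Klf2, at 20.4 and 59.4, Mki67, at 125 and 253, and Fam129c, at 5.82 and 66.8. For Mki67 1 cell gave 43.1% of the day 56 UMIs, and the share of cells with 2 or more was higher on day 40, as given above. The cell cycle gene Cenpf, at 32.0 and 151 CPM, drew 77.0% of its day 56 UMIs from 1 cell. Cenpf and Fam129c were among the largest folds towards day 56, and the other genes named above were picked from the gene lists. Largest towards day 40 were Bpifb1, Bpifa1, Pigr, Aldh1a1, Cyp2f2, Epas1 and Klrd1. Each of these drew 60.0% to 100% of its day 40 UMIs from 1 cell.

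Signals that act on B lineage cells were read in the other cells of the same libraries, by a list chosen with earlier results known. Ccl20, the ligand of Ccr6, stood in epithelial cells at 17.4 CPM in the control, at 231 and 243 in the endogenous libraries of days 40 and 56 and at 1514 and 274 in the donor-derived ones. It was in 20 of 582 control cells, 124 of 968 and 94 of 731 endogenous cells, and 630 of 1502 and 107 of 1281 donor-derived cells. Every recipient library lay above the single control. Pigr stood at 335 CPM in the control, at 542 and 588 in the endogenous and at 1690 and 704 in the donor-derived epithelial cells. Ccl28, a chemokine for IgA-secreting cells, stood at 8.05 in the control, 7.26 and 12.7 in the endogenous and 1.61 and 2.41 in the donor-derived cells. Cxcl13, the ligand of Cxcr5, had 102 UMIs in 1 of 62 class II myeloid cells on day 40 and 726 UMIs in 13 of 78 on day 56. Tnfsf13b, the survival factor BAFF, was in 5 of 62 and 28 of 78. The make-up of this group differed between days. Cells with 2 or more UMIs of the complement C1q genes were 7 on day 40 and 37 on day 56, and Siglech-positive cells 44 and 32. The part of make-up in the Cxcl13 and Tnfsf13b values was not tested. With 1 control trachea and 1 recipient a day, these values have no test.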

How the data were processed

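The deposited matrices give raw UMI counts (whole numbers) for each gene in each barcode, with human and mouse genes in 1 reference, per the file headers and values. Tools named in the submitters' processing notes are Cell Ranger, Seurat and STARsolo, and the builds are GRCh38 and GRCm38. Their roles, the annotation, strand setting and barcode filters are not given in the sources used here. Mouse UMIs per library ran from 7644826 to 25566691. The members, gene lists and tests were chosen with earlier results of these data known.

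UMIs were summed per library and class and compared with edgeR 4.0.16 in R 4.3.3 (TMM, filterByExpr, robust quasi-likelihood test, Benjamini-Hochberg adjustment over all genes tested, threshold 0.05), with DESeq2 1.42.0 as an alternative. The SE is the log2 fold change divided by the square root of F, an approximation. CPM are of each class sum, without TMM. The 2 sums of a library come from 1 animal, so the libraries pair the classes; the correlation of day differences across genes was 0.0224 (B lineage and T cells) and 0.0424 (myeloid), and the library block was an alternative. A test of Ms4a1-positive against Jchain-high cells needed 10 cells of each per library and was not run. On simulated counts 96.5% (T cells) and 87% (myeloid) of 200 genes changed 4-fold were recovered. The changed genes were drawn only from genes above a minimum of summed UMIs. All genes were simulated with a single common dispersion and no animal effect, so these shares do not cover sparser genes. Named genes were the 8 largest called changes per direction at 50 CPM or more, up to 4 called genes per list and direction, and constant genes and markers. Between days, genes were named from the lists and from the 6 largest folds per direction, not all of which are named. Doublets were called with Scrublet per library (50 barcodes, 0.755%) and kept. Analyses ran in Python 3.11.15 with scanpy 1.11.5, numpy 2.4.6, scipy 1.17.1, pandas 2.3.3 and matplotlib 3.10.9. Some genes the rule names are not reported here.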

Additional observations from a re-analysis of the deposited data

Results flagged for a closer look

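Barcodes with 10 or more Jchain UMIs were also found outside the rule for B lineage cells. On day 40, 1 barcode that was no member had 10 or more Jchain UMIs, with 13 of Jchain, 29 of Igha, 37 of Igkc and 1 of Cd79a. On day 56 there were 2 such barcodes. One had 824 Jchain, 376 Ighg2c and 4587 Igkc UMIs with 12 of Siglech, 16 of Tyrobp and 0 of Cd79a, and Scrublet called it a doublet. The other had 1049 Jchain, 1506 Ighg2b and 7742 Igkc UMIs and 3 of Cd79a, and was left out for its CD3 UMIs. The library of day 56 held 3 barcodes with at least 2 Cd79a and at least 2 CD3 UMIs, and that of day 40 held 0. No control barcode had 10 or more Jchain UMIs. The Cd79a threshold therefore leaves out some barcodes rich in Jchain, and the count of 1 and 4 Jchain-high members is a count under this rule.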

How the results depend on the processing

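Against T cells DESeq2 called 285 genes higher and 240 lower, and leaving out 1 sum gave 358 to 532 higher and 258 to 534 lower, with 258 without the T cells of day 56. Against class II myeloid cells DESeq2 called 217 higher, no filter on low counts gave 798 higher and 1106 lower, and leaving out 1 sum gave 353 to 557 higher and 448 to 829 lower. The lone sum left was assumed to vary like the others. With the library as a block, which pairs the classes of 1 animal, 630 genes were higher and 559 lower than in T cells and 415 and 653 than in myeloid cells. Among the named genes and alternatives, 956 results against T cells and 1115 against myeloid cells kept their direction and side of the threshold. Against T cells 69 lost their call and 6 turned their sign. Against myeloid cells 59 lost their call, 28 gained 1 and 9 turned their sign. These counts include the genes of the rules, on which the cells were selected.

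Some signs turned, and beyond what the excluded cells show the cause was not tested. Against T cells, Wfdc2 went to -1.02 without Epcam-carrying members. Xbp1, not called in any of these, went to -0.062 without a filter, -0.039 without doublets and -0.21 without Epcam-carrying members, and ranged from -0.074 to 0.074 when 1 sum was left out. Against myeloid cells, Bcl11a went to 2.11 without Siglech-carrying cells. Ighg2c went to 7.49 without doublets, 6.95 without Siglech-carrying cells, 7.47 without Jchain-rich cells and ranged from -3.71 to 7.33 when 1 sum was left out. Igkc then ranged from -0.83 to 5.00, negative without the myeloid cells of day 40 (-0.83) or the B lineage cells of day 56 (-0.15). Jchain went to 2.04 with all B lineage cells and ranged from -7.87 to 1.88 when 1 sum was left out, positive without the myeloid cells of day 56.

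B lineage cells were 16.5% and 12.8% of Ptprc-positive barcodes. At 20 Jchain UMIs day 40 had 0 Jchain-high cells, and at 100 CPM 83 genes were 2-fold apart between days. Jchain-high cells were too few for any of their fits, which were not run. Few cells and 2 recipients limit the depth of every class sum.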
